A study of Mus musculus with 9 samples.

Results

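The 9 genes described here had an array signal that clearly differed between multipotent blood progenitors of E2A-/- mice and those of Lyl1-/- mice. They are Sdc1, Stx3, Tpm4, Sema3d, Auts2, Anxa1, Card6, Pde2a and Lpcat2. They were chosen by the difference in log2 intensity between the E2A-/- and Lyl1-/- arrays, so that difference is given as a description and is not tested. The platform annotation gave these 9 genes 24 probe sets, out of 18193 genes and 34945 probe sets named by a single gene. The series held 9 Affymetrix 3-prime expression arrays, with 3 arrays each of E2A-/-, Lyl1-/- and wild-type (WT) mice. RNA came from bone marrow cells sorted as negative for lineage markers and positive for CD117, SCA-1 and CD135, in all 3 genotypes alike, and the labels call the samples of a genotype biological replicates. Strain, age, sex and the design of the alleles were not given in the sources used here.

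E2A proteins, encoded by Tcf3, and Lyl1 are basic helix-loop-helix transcription factors. Such factors bind DNA as dimers at a short motif called the E-box, and Lyl1 is known to pair with E2A proteins. Both are known for roles in blood progenitors that carry CD135 (the receptor Flt3), the cells from which lymphoid lineages can arise.

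The Lyl1 signal went with the labels, whereas Tcf3 set the E2A-/- arrays apart only on a dim probe set, so the E2A-/- labels could not be checked as clearly. Lyl1 had 89.6, 79.2 and 92.0 units of intensity on the Lyl1-/- arrays, against 825 to 1443 on the other 6 arrays. The brightest Tcf3 probe set did not separate the groups. It had 172, 193 and 121 on E2A-/- arrays, 192 to 208 on Lyl1-/- arrays and 164 to 205 on WT arrays. On a dim one all E2A-/- arrays were lowest, with 69.7, 65.3 and 65.9. There the Lyl1-/- arrays read 70.8 to 79.9 and the WT arrays 72.0 to 74.3, all near or below the array median. On the remaining probe set E2A-/- and WT arrays overlapped. The labels do not say whether these probe sets lie in a deleted part of the gene. WT 1 and WT 3 differed less than any of the other 35 pairs of arrays, with a robust spread of 0.0823 log2 units at bright probe sets against 0.193 to 0.375, and were therefore counted as 1 sample. Of the genes behind the sort, Kit had 327 to 493 on E2A-/- arrays, 314 to 397 on Lyl1-/- arrays and 465 to 508 on WT arrays, and Flt3 had 863 to 1217 on E2A-/- arrays, 672 to 1136 on Lyl1-/- arrays and 1052 to 1302 on WT arrays. Intensities are on a linear scale, and the median of an array was 77.9 to 79.3, so a signal near that level is dim.

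For 8 of the 9 genes, the 3 WT arrays lay between the E2A-/- and the Lyl1-/- arrays with no overlap. In 7 of these (Sdc1, Stx3, Tpm4, Sema3d, Anxa1, Card6 and Lpcat2) all E2A-/- arrays were above all WT arrays, and all WT arrays were above all Lyl1-/- arrays. Pde2a had the opposite order. Auts2 was the exception: E2A-/- arrays were high, and Lyl1-/- arrays overlapped WT. Of the 11951 genes tested, 48 (0.402%) had the WT arrays between the knockouts without overlap, 27 of them (0.226%) with E2A-/- highest and 21 (0.176%) with Lyl1-/- highest. The knockouts themselves did not overlap for any member, by choice, 8 with E2A-/- above (5.73% of tested genes) and 1 with it below (6.46%). The members were chosen for a clear difference between the knockouts. A wide gap leaves room for WT within it, and a small spread within groups also favours groups that do not overlap. The count of 8 is therefore not independent of the choice. Of the 53 other tested genes whose gap was at least that of Lpcat2, the smallest member (0.77 log2), 4 had WT between without overlap and 31 had the WT mean between. Only 4 of the 53 passed between the knockouts (limma, adjusted p under 0.05), while the 9 members, chosen by that comparison, all did. Of the 5 non-members that passed there, 3 had WT between without overlap. Lpcat2 itself was at rank 62 by size, and the neighbours Matn2 and Fgl2, which are no members, also differed by 0.77 log2. In these bulk samples, fewer cells of a type and less RNA per cell cannot be told apart.

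**Figure D1:**
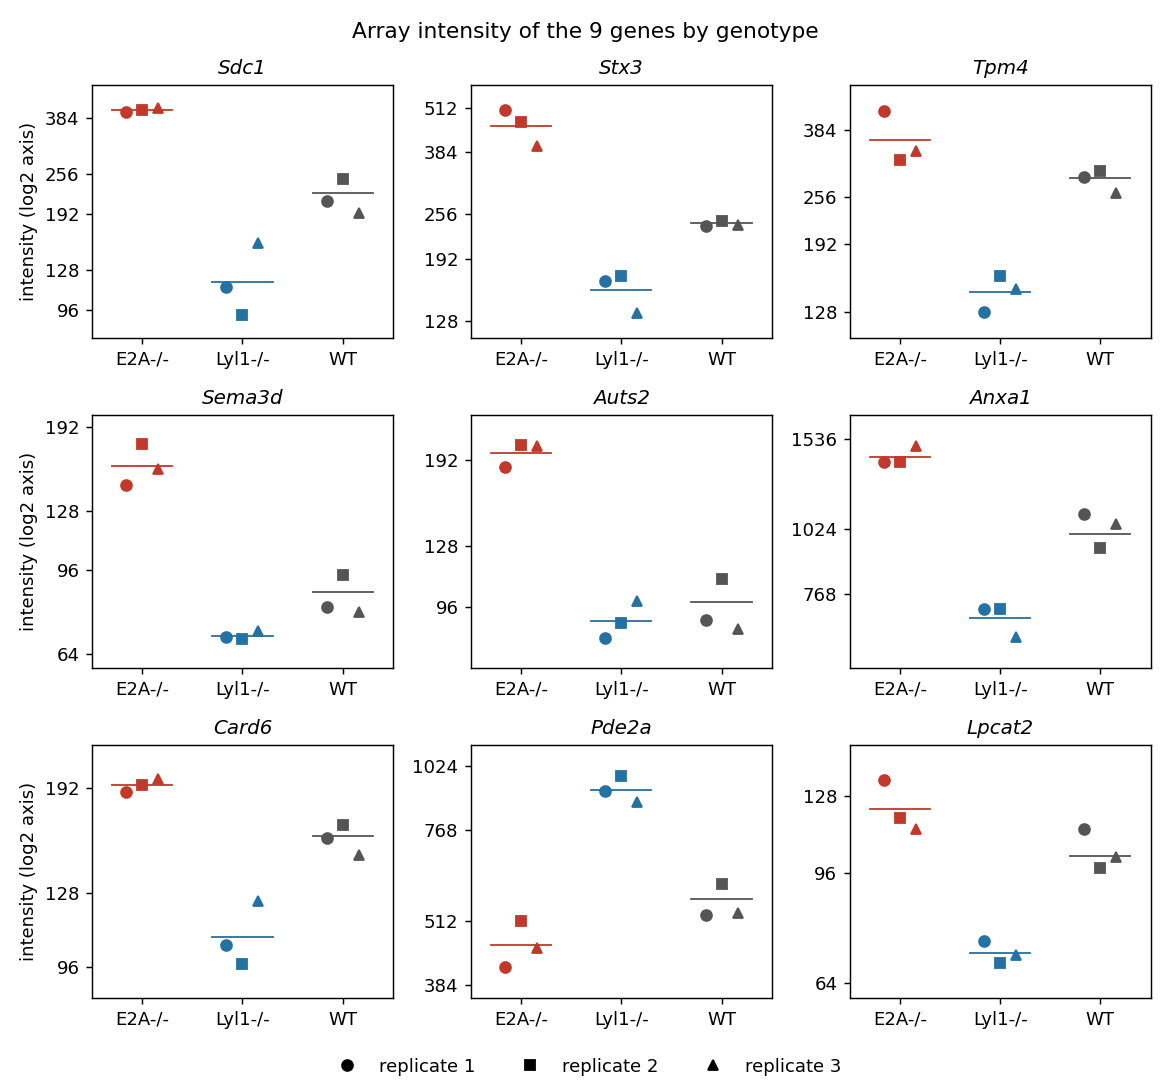
Intensity of each gene's probe set of highest mean signal (log2 axis) on the 3 E2A-/-, 3 Lyl1-/- and 3 WT arrays. Points are arrays, with a marker shape for each replicate number, and lines are geometric group means, in which WT 1 and WT 3 count as 1 sample. In 7 panels the order is E2A-/-, WT, Lyl1-/- from high to low without overlap, Pde2a has the reverse order, and in Auts2 the Lyl1-/- and WT points mix.

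The members share a difference between the knockouts by choice, and the stretch before their gene starts was searched for the E-box, the motif that E2A and Lyl1 dimers recognise. RefSeq (GRCm38.p6) gave a promoter for 7 of the 9 genes with 11 gene starts between them. Auts2 and Card6 had no entry. The 250 bases before the start held an E-box, CANNTG, in 8 of the 11 promoters, which belong to 5 of the 7 genes, while 66.2% of all 32851 promoters held one. Anxa1 and Tpm4 held none. Pde2a alone gave 5 of the 11 promoters, so the shares per promoter weigh that gene most, and a share per gene was not computed over all genes. The form CAGGTG, read on either strand and always also a CANNTG match, stood in 2 of the 11 promoters (1 each of Sema3d and Pde2a) against 17.2% of all promoters. CAGCTG stood in 0 of 11 against 13% of all promoters. The GATA-factor motif GATAA, also read on either strand and able to share no more than an end base with an E-box, stood in 4 of 11 against 22.6%. The 4 stretches below are shown because they belong to the 2 genes with CAGGTG and to the 2 genes with the widest gap between the knockouts; capitals mark every CANNTG, and each line runs 5′ to 3′ up to the base before the start.
Sema3d, chr5:12382916-12383165, plus strand: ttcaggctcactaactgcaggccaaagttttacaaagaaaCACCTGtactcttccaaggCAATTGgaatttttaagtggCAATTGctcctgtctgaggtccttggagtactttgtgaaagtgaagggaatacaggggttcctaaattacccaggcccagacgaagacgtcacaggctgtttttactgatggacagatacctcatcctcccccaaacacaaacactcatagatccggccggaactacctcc
Pde2a, chr7:101455812-101456061, plus strand: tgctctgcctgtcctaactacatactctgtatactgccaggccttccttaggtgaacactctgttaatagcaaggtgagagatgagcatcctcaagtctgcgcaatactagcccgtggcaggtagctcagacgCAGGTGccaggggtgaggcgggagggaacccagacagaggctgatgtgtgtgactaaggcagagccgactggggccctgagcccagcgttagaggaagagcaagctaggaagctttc
Sdc1, chr12:8771146-8771395, plus strand: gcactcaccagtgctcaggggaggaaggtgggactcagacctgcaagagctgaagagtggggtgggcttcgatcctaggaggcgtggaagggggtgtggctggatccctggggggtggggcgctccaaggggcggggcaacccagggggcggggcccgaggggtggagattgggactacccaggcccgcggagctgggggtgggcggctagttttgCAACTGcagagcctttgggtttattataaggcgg
Stx3, chr19:11819404-11819653, minus strand: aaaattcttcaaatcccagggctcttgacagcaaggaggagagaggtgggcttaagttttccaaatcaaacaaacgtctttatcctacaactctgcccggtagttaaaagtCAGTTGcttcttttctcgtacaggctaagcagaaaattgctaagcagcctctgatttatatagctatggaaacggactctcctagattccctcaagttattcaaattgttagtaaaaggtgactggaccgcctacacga
Sema3d had 3 E-boxes, at 210, 191 and 171 bases before its start, of which the outermost is CAGGTG on the other strand. The Pde2a start shown, 1 of its 5 listed starts, had CAGGTG at 117 bases, Sdc1 had CAACTG at 34 bases and Stx3 had CAGTTG at 139 bases. These are matches of letters and not measured binding sites.

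Sdc1 encodes syndecan-1 (CD138), a heparan sulfate proteoglycan of the cell surface that is known as a marker of plasma cells. Its intensity was 399.9, 407 and 412 on E2A-/- arrays, 113, 93.1 and 156 on Lyl1-/- arrays, and 210.5, 247 and 194 on WT arrays. The E2A-/- arrays lay close together, the Lyl1-/- arrays spread more, and no groups overlapped. E2A-/- was 3.44-fold above Lyl1-/- (1.78 log2). Against WT the difference was 0.86 ± 0.20 log2 in E2A-/- (SE, adjusted p = 0.204) and -0.92 log2 in Lyl1-/- (adjusted p = 0.191), from limma with Benjamini-Hochberg adjustment over all tested genes. WT sat near the middle, with 48.3% of the gap between the knockouts on the E2A-/- side.

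Sema3d encodes a secreted class 3 semaphorin, a guidance ligand that acts through neuropilin and plexin receptors. It had 145, 177 and 156 on E2A-/- arrays, 69.4, 69.0 and 71.7 on Lyl1-/- arrays, and 80.5, 94.0 and 78.3 on WT arrays. All 3 E2A-/- arrays stood well above the rest, and the Lyl1-/- arrays lay below the array median. E2A-/- was 2.27-fold above Lyl1-/- (1.18 log2), and 74.4% of that gap lay between E2A-/- and WT. In E2A-/- Sema3d was 0.88 ± 0.12 log2 above WT (SE, limma adjusted p = 0.0311, and 0.0387 with no filter on low signal). The difference in Lyl1-/- was -0.30 log2 (adjusted p = 0.506). Sema3d was above the array median on 5 arrays, all 3 E2A-/- and 2 of WT, so without its E2A-/- arrays it would not have entered the test.

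Stx3 encodes syntaxin-3, a SNARE protein that drives fusion of vesicles with the plasma membrane. Its signal was 505, 466 and 398 on E2A-/- arrays, 166, 171 and 135 on Lyl1-/- arrays, and 238, 245 and 239 on WT arrays. The WT arrays were nearly equal, and both knockouts lay apart from them on opposite sides. E2A-/- was 2.91-fold above Lyl1-/- (1.54 log2). The difference from WT was 0.91 ± 0.14 log2 in E2A-/- (SE, limma adjusted p = 0.0641) and -0.63 log2 in Lyl1-/- (adjusted p = 0.211). Of the gap between the knockouts, 59.2% lay on the E2A-/- side of WT.

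Tpm4 encodes a tropomyosin, a coiled-coil protein that lies along actin filaments and is known from platelets and other non-muscle cells. It had 431, 320.2 and 338 on E2A-/- arrays, 128, 159 and 147 on Lyl1-/- arrays, and 289, 299 and 261 on WT arrays. The Lyl1-/- arrays were the ones that stood apart, while E2A-/- 2 and E2A-/- 3 were only slightly above WT. E2A-/- was 2.5-fold above Lyl1-/- (1.32 log2). The difference from WT was 0.33 ± 0.15 log2 in E2A-/- (SE, limma adjusted p = 0.623) and -1.0 log2 in Lyl1-/- (adjusted p = 0.0613), with 24.7% of the gap on the E2A-/- side.

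Anxa1 encodes annexin A1, a calcium-dependent phospholipid-binding protein that is abundant in myeloid cells and acts on formyl peptide receptors. It had 1387, 1381 and 1488 on E2A-/- arrays, 718, 718 and 633 on Lyl1-/- arrays, and 1099, 941 and 1047 on WT arrays. Each group formed a cluster of its own. E2A-/- was 2.06-fold above Lyl1-/- (1.04 log2). The difference from WT was 0.50 ± 0.11 log2 in E2A-/- (SE, limma adjusted p = 0.177) and -0.55 log2 in Lyl1-/- (adjusted p = 0.17), so WT was about midway, with 47.7% of the gap on the E2A-/- side.

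Card6 encodes a protein with a caspase recruitment domain, a fold that links receptors and adaptors in innate immune signalling. It had 189, 194 and 199 on E2A-/- arrays, 104, 97.2 and 124 on Lyl1-/- arrays, and 158, 166 and 148 on WT arrays. WT lay nearer to E2A-/-, with 33.4% of the gap on that side. E2A-/- was 1.79-fold above Lyl1-/- (0.84 log2). The difference from WT was 0.28 ± 0.12 log2 in E2A-/- (SE, limma adjusted p = 0.571) and -0.56 log2 in Lyl1-/- (adjusted p = 0.19).

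Lpcat2 encodes a lysophosphatidylcholine acyltransferase that also makes platelet-activating factor. It had 136, 118 and 113 on E2A-/- arrays, 74.9, 68.9 and 71.1 on Lyl1-/- arrays, and 113, 97.9 and 102 on WT arrays. E2A-/- 3 was barely above WT 1 (113.1 against 113.03), so the gap between these groups rests on under 1 unit, and the Lyl1-/- arrays were below the array median. E2A-/- was 1.70-fold above Lyl1-/- (0.77 log2), with 32.4% of the gap on the E2A-/- side. The difference from WT was 0.25 ± 0.11 log2 in E2A-/- (SE, limma adjusted p = 0.593) and -0.52 log2 in Lyl1-/- (adjusted p = 0.19).

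Pde2a, which encodes a phosphodiesterase that breaks down cyclic AMP and cyclic GMP and is stimulated by cyclic GMP, was the only member with its highest signal in Lyl1-/-. It had 415, 511 and 453 on E2A-/- arrays, 914, 980.3 and 871 on Lyl1-/- arrays, and 525, 602 and 529 on WT arrays. The Lyl1-/- arrays were far above the other 6 arrays, whereas E2A-/- 2 came close to WT. E2A-/- minus Lyl1-/- was -1.01 log2, so Lyl1-/- was 2.01-fold higher. The difference from WT was -0.30 ± 0.12 log2 in E2A-/- (SE, limma adjusted p = 0.548) and 0.71 log2 in Lyl1-/- (adjusted p = 0.109), with 29.6% of the gap on the E2A-/- side.

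Auts2 encodes a nuclear protein that, in mouse brain, joins a Polycomb complex and is tied to active transcription. It had 186, 206 and 205 on E2A-/- arrays, 82.8, 88.8 and 98.5 on Lyl1-/- arrays, and 90.3, 109.5 and 86.6 on WT arrays. Only the E2A-/- arrays stood apart. E2A-/- was 2.21-fold above Lyl1-/- (1.14 log2), and 88.5% of that gap lay between E2A-/- and WT. Auts2 was higher in E2A-/- than in WT by 1.01 ± 0.13 log2 (SE, limma adjusted p = 0.0231), while the difference in Lyl1-/- was -0.13 log2 (adjusted p = 0.877). The E2A-/- arrays also served to choose Auts2, so the value against WT is given as a description.

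Against WT in E2A-/-, Auts2 passed the threshold of 0.05 on the adjusted p by limma and was higher. Sema3d, also higher, had an adjusted p below that threshold, but entered the test through its E2A-/- arrays. The values of both genes are given as descriptions, since the E2A-/- arrays served to choose them. Of all tested genes, 0.226% passed in this comparison and 0.117% passed as higher. In Lyl1-/-, 0 of the 9 passed by limma, against 0.192% of all tested genes. At an unadjusted p under 0.05, 7 of the 9, Sema3d included, passed in E2A-/- and 8 of the 9 in Lyl1-/-, against 8.57% and 8.77% of all tested genes. Without overlap, 8 members were above WT in E2A-/- (7.46% of tested genes) and 1 was below (10.4%), and 7 were below WT in Lyl1-/- (12.2%) and 1 above (9.91%). These counts are not independent of the choice of the genes, since the E2A-/- and Lyl1-/- arrays served for that choice, and both comparisons share the WT arrays. The adjusted p of Auts2 and of Sema3d was over the threshold without any 1 of Lyl1-/- 1, Lyl1-/- 2, E2A-/- 2, E2A-/- 3 or WT 2 (0.0606 to 0.0901 for Auts2 and 0.0809 to 0.116 for Sema3d), that of Sema3d also without Lyl1-/- 3 (0.0535), and both where all probe sets of a gene were averaged (0.131 for Auts2 and 0.0586 for Sema3d). With WT 1 and WT 3 as separate samples, 4 members passed in E2A-/- and 5 in Lyl1-/-.

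The mean of both knockouts minus WT is the comparison that does not draw on the difference between the knockouts. In it 0 of the 9 genes passed by limma, against 0.184% of all tested genes. At an unadjusted p under 0.05 there were 3 of the 9 (Tpm4, Sema3d and Auts2), against 8.29%. Sema3d is among them although it entered the test through its E2A-/- arrays. The fit gives each gene 1 estimate of spread for all comparisons, so this count may not be free of the choice of the genes. Values in the mean of both knockouts minus WT ran from -0.33 log2 for Tpm4 (adjusted p = 0.556) to 0.44 log2 for Auts2 (adjusted p = 0.282). Sdc1 (-0.03 log2) and Anxa1 (-0.02 log2) were closest to 0. In the comparison that chose them, all 9 genes were among the 14 that passed over the whole table (0.117%), a count from which nothing is read. The other 5 genes that passed there were Gm4047, Lyl1, Hoxb5os, Gfi1b and Mt2.

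**Figure D2:**
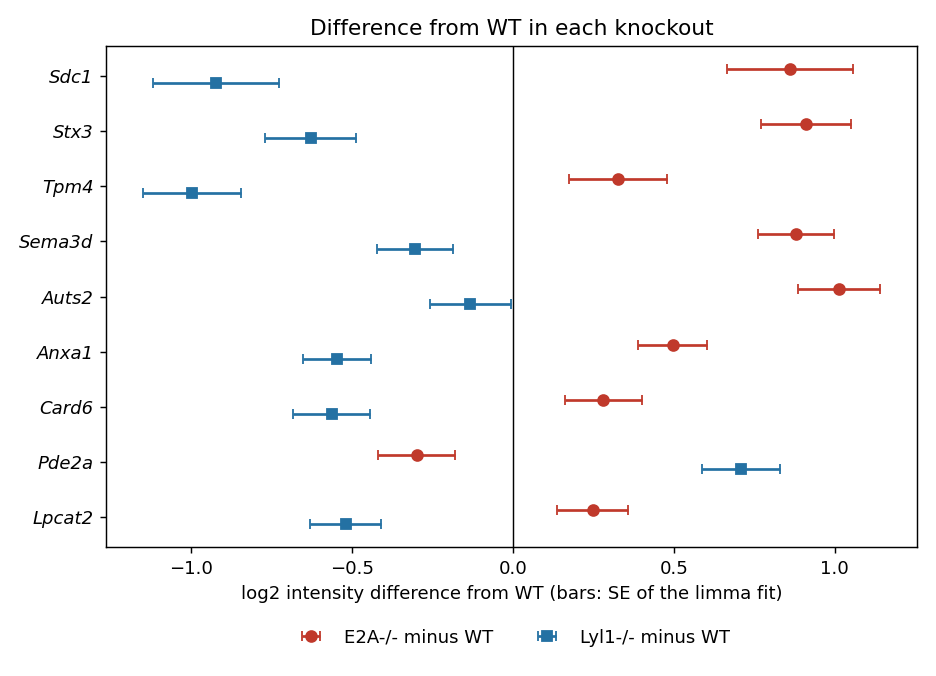
Difference from WT in log2 intensity for E2A-/- (circles) and Lyl1-/- (squares), with bars for the SE of the limma fit. E2A-/- lies right of 0 and Lyl1-/- left of 0 for 8 genes, from 1.01 and -0.13 for Auts2 to 0.33 and -1.0 for Tpm4, and Pde2a has the signs reversed.

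The other probe sets of the same genes gave smaller differences between the knockouts. Tpm4 and Card6 have a single probe set, and the remaining 7 genes share 15 others, of which 11 had the sign of the brightest one and 8 of these also had E2A-/- and Lyl1-/- arrays apart. Of the 7 others whose signal exceeded the median of the array on 3 or more arrays, 5 had the same sign with the groups apart. Sdc1 had 3 others: 1 read 144, 175 and 154 on E2A-/- arrays, 85.9, 76.3 and 104 on Lyl1-/- arrays and 107, 106 and 109.9 on WT arrays (0.83 log2 between the knockouts), another differed by 0.59 log2, and the last by -0.01 log2 near the array median. The first of these kept the order of all 3 groups. On the one with 0.59 log2 the Lyl1-/- arrays overlapped WT, and on the last all groups overlapped. The Sdc1 probe set used above carries the suffix _x_at, and the one of Pde2a the suffix _s_at, by which Affymetrix marks probe sets that may bind more than 1 transcript.

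Pde2a kept its direction in a second probe set, with 93.6, 87.9 and 113 on E2A-/- arrays, 157, 159.9 and 135 on Lyl1-/- arrays, and 114, 84.9 and 109.5 on WT arrays. There E2A-/- and WT overlapped and Lyl1-/- alone stood apart, by 0.62 log2 above WT. Its remaining probe set, above the median on all 9 arrays, differed by -0.13 log2 between the knockouts with overlap. Auts2 had 4 others, and the brightest of them read 118, 106 and 97.7 on E2A-/- arrays, 77.4, 87.1 and 84.1 on Lyl1-/- arrays, and 76.2, 86.2 and 81.9 on WT arrays. This repeated the pattern of E2A-/- high and Lyl1-/- level with WT, at 0.37 log2 between the knockouts. The second Sema3d probe set was dim, with 73.5, 74.4 and 94.2 on E2A-/- arrays, 55.7, 55.1 and 62.3 on Lyl1-/- arrays, and 62.7, 67.0 and 65.1 on WT arrays, and kept the order of all 3 groups (0.48 log2). Stx3 had 3 others near or below the array median, with 0.30, 0.27 and -0.06 log2, and the second probe sets of Anxa1 and Lpcat2 were dim and differed by -0.01 and -0.09 log2. On all 3 of the other Stx3 probe sets the Lyl1-/- arrays overlapped WT (0.01, -0.03 and -0.01 log2 from WT). The low Stx3 signal in Lyl1-/- was thus not repeated there.

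**Figure D3:**
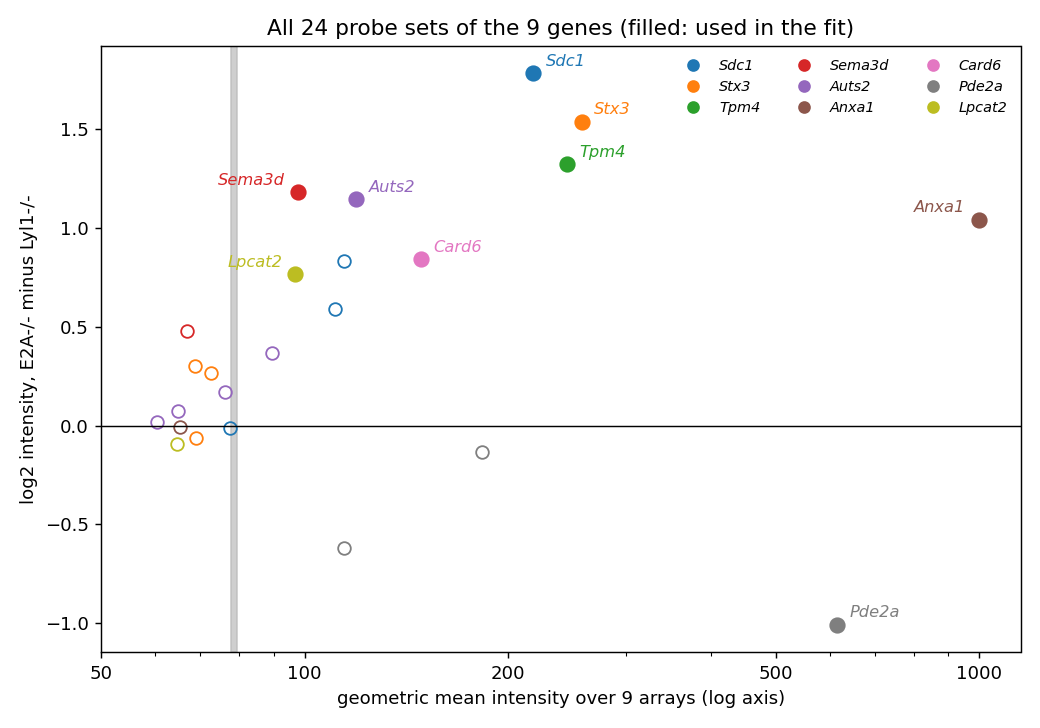
All 24 probe sets of the 9 genes, with geometric mean intensity over 9 arrays on the x axis (log axis) and the log2 difference E2A-/- minus Lyl1-/- on the y axis. Filled points are the probe sets of highest mean used in the fit, open points the other 15, and the grey band spans the array medians of 77.9 to 79.3. The open points run from -0.62 to 0.83 log2, against -1.01 to 1.78 log2 for the filled ones.

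Arrays of a genotype were not alike in markers of other cells. The mature granulocyte and monocyte list (10 of its 13 genes on the array exceeded the median on 3 or more arrays) had summed levels of 2094 to 19636 on E2A-/- arrays, 2374 to 3943 on Lyl1-/- arrays and 2059 to 2576 on WT arrays. E2A-/- 2 and E2A-/- 3 made the high end, with Camp at 1798 and 1982, while E2A-/- 1 had 127 and the WT arrays 104 to 118. On E2A-/- 1 alone, where the list's median lay 0.03 log2 from WT, the 9 genes differed from the Lyl1-/- mean by 0.81 to 1.76 log2 in size, with a sign that the choice of the genes fixes, and the part of granulocyte transcripts in their differences was not tested. On the same array the median of the granulocyte and monocyte progenitor list lay 0.51 log2 above WT. The erythroid list (8 of 9 above the median) summed to 1933 to 3492 on E2A-/- arrays, 1414 to 1863 on Lyl1-/- arrays and 1779 to 2439 on WT arrays, so the knockouts did not overlap while each overlapped WT. All 8 tested genes of that list were higher in E2A-/- than in Lyl1-/- (median 0.71 log2), 0 of them past the threshold, and the list's part in the differences of the 9 genes was not tested. The mature B and plasma cell list, of interest for Sdc1, had its lowest sums in E2A-/-, with overlap between the knockouts. Sums were 2775 to 3515 on E2A-/- arrays, 3462 to 3921 on Lyl1-/- arrays and 3906 to 4495 on WT arrays. Ighm and Xbp1 made up most of each sum, and Ighm read 952 to 1777, 1270 to 2127 and 1805 to 2750 in that order. The list's median per array was -0.09 to -0.06 log2 from WT on E2A-/- arrays and -0.05 to -0.01 log2 on Lyl1-/- arrays. In that list 5 of 10 genes were above the array median. The plasma cell gene Jchain read 61.4 to 63.8 on E2A-/- arrays, 56.0 to 62.9 on Lyl1-/- arrays and 65.0 to 98.7 on WT arrays. The stromal and endothelial list (3 of 9 above the median) summed to 674 to 713 on E2A-/- arrays, 684 to 699 on Lyl1-/- arrays and 675 to 1070 on WT arrays. WT 2, 1 of the 2 WT samples in the fit, made the high end. It had Col1a2 at 415, against 69.6 to 102 on the other arrays, and Col1a1 at 130. The other genes of that list did not stand out on WT 2, and its part was not tested.

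Xist, which is transcribed from the inactive X chromosome of females, read 2362 on E2A-/- 2, 2011 on Lyl1-/- 1 and 2001 on Lyl1-/- 2, against 79.7 to 104 on the other 6 arrays. Within the arrays with Xist signal, E2A-/- 2 differed from the mean of Lyl1-/- 1 and 2 by 0.71 to 1.98 log2 in size over the 9 genes. Within those without it, E2A-/- 1 and 3 differed from Lyl1-/- 3 by 0.64 to 1.74 log2. The signs in both are fixed by the choice of the genes, and the part of sex in the differences was not tested. With the presence of Xist signal as a covariate neither Sema3d (adjusted p = 0.0879) nor Auts2 (adjusted p = 0.0631) passed against WT. The ratio of 3-prime to 5-prime actin signal, a measure of RNA integrity and labelling, was 10.1 on E2A-/- 2 and 10.6 on WT 2 and 2.85 to 4.23 elsewhere.

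**Figure D4:**
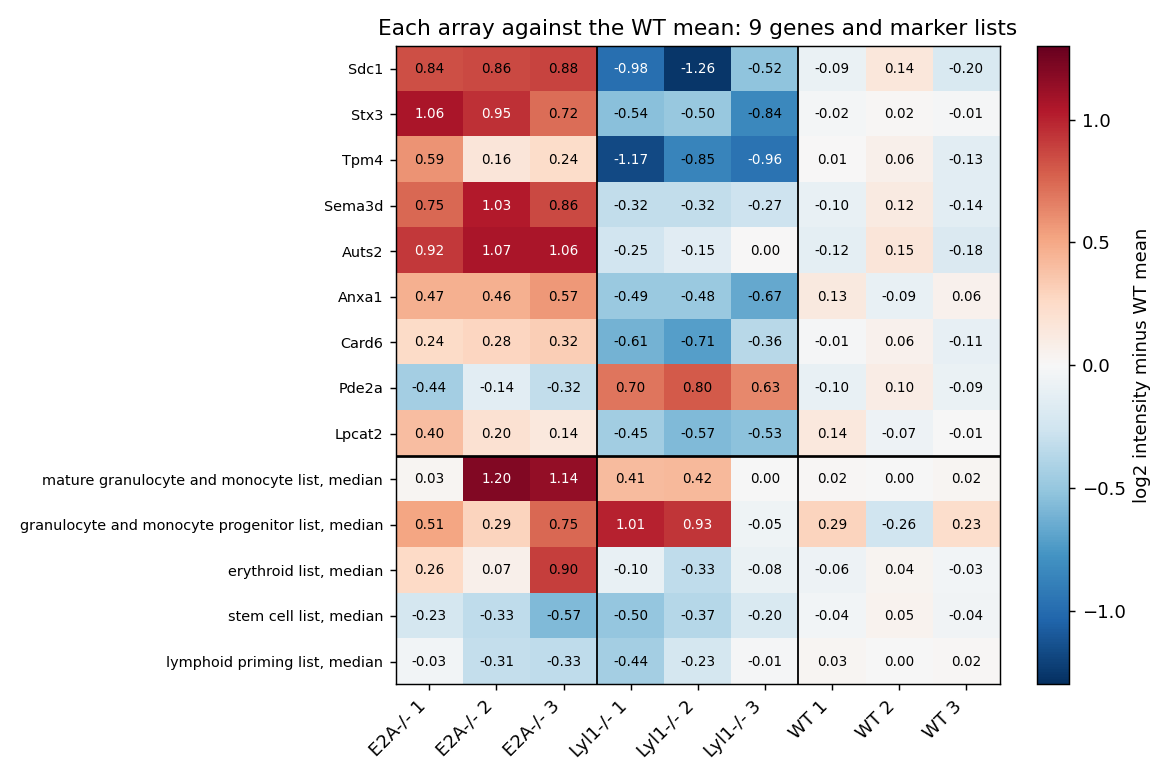
Log2 intensity minus the WT mean on each array (columns, E2A-/-, Lyl1-/-, WT) for the 9 genes (upper rows) and the median of 5 marker lists (lower rows). The 8 genes that are high in E2A-/- are positive on all 3 E2A-/- arrays. The mature granulocyte and monocyte list is at 0.03 on E2A-/- 1 and at 1.20 and 1.14 on E2A-/- 2 and 3. The granulocyte and monocyte progenitor list is at 0.51, 0.29 and 0.75 on the E2A-/- arrays and at 1.01, 0.93 and -0.05 on the Lyl1-/- arrays.

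Relatives and partners of the 9 genes were set beside them. Of 128 tested genes from 16 lists of paralogs, receptors and pathway partners, 0 passed by limma in E2A-/- against WT, 0 in Lyl1-/- against WT and 0 between the knockouts, against 0.226%, 0.192% and 0.117% of all tested genes, so few or none would pass in a list of this size. At an unadjusted p under 0.05 there were 13, 9 and 13, against 8.57%, 8.77% and 8.64% of all tested genes. Their median difference between the knockouts was 0.00 log2, against -0.01 log2 over all tested genes. The other 3 tropomyosins all had the sign opposite to Tpm4: Tpm3 read 1554, 1445 and 1764 on E2A-/- arrays, 1937, 1863 and 1671 on Lyl1-/- arrays, and 1607, 1621 and 1539 on WT arrays. E2A-/- minus Lyl1-/- was -0.20 log2 for Tpm3 (adjusted p = 0.639) and -0.04 log2 for Tpm2 (adjusted p = 0.969). The syndecans Sdc3 and Sdc2 differed by 0.12 and -0.01 log2 between the knockouts, the syntaxins Stx5a and Stx6 by -0.03 and 0.44 log2, and the class 3 semaphorins Sema3f and Sema3b by 0.19 and -0.04 log2. None of these passed.

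Among the receptors of class 3 semaphorins, 0 of 9 tested neuropilins and plexins passed in any comparison, and Nrp1, singled out after its values were seen, read 0.55 log2 above WT in E2A-/- (adjusted p = 0.511). The annexins Anxa2 and Anxa4 differed by 0.12 and 0.28 log2 between the knockouts. The calcium-binding S100 protein S100a4 had the lowest adjusted p of all partners in E2A-/- against WT, 0.83 log2 (adjusted p = 0.0885), and was singled out after its values were seen. It was also above WT in Lyl1-/-, by 0.59 log2 (limma adjusted p = 0.231), and differed by 0.24 log2 between the knockouts. Lpcat1 and Lpcat3, acyltransferases related to Lpcat2, differed by 0.21 and 0.19 log2 between the knockouts.

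Among 11 tested phosphodiesterases other than Pde2a, Pde3b, which hydrolyses cyclic AMP and is inhibited by cyclic GMP, had the lowest adjusted p between the knockouts (0.0953) and was also singled out after its values were seen. It had 273, 274 and 293 on E2A-/- arrays, 186, 205 and 192 on Lyl1-/- arrays, and 204, 203 and 187 on WT arrays. The E2A-/- arrays were high and the Lyl1-/- arrays overlapped WT, so its direction was opposite to that of Pde2a (0.53 log2). Pde4b and Pde7a differed by 0.14 and -0.18 log2. The 13 tested genes of cyclic nucleotide synthesis and protein kinase A had a median of 0.01 log2 between the knockouts. The AUTS2 family and its Polycomb partners (10 tested) had a median of 0.01 log2, and the CARD proteins and NOD pathway genes (7 tested) one of 0.02 log2.

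The profile over the 9 arrays most like the mean of the 8 genes high in E2A-/- was that of Gm4047, a predicted gene (Pearson r = 0.945). It had 823, 745 and 873 on E2A-/- arrays, 63.1, 64.4 and 87.8 on Lyl1-/- arrays, and 95.4, 135 and 94.3 on WT arrays. Next came Chn2, a GTPase-activating protein for Rac (r = 0.934), and Dock11, an exchange factor for Cdc42 (r = 0.933). Dock11 read 1349, 1285 and 1173 on E2A-/- arrays, 986, 848 and 957 on Lyl1-/- arrays, and 1102, 1140 and 1089 on WT arrays, again with WT between the knockouts. Most like Pde2a were Cdcp1 (r = 0.959), Mtch1 (r = 0.950) and N4bp3 (r = 0.941). N4bp3 had 122, 120.5 and 111 on E2A-/- arrays, 178, 198 and 154 on Lyl1-/- arrays, and 131, 141 and 135 on WT arrays. These are correlations over arrays that share the same 3 groups, picked as the highest of all tested genes, and are given as descriptions.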

How the data were processed

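Gene expression was measured on 9 Affymetrix arrays, 3 per genotype, with groups and replicate numbers taken from the sample titles. The table deposited by the authors holds 1 linear intensity per probe set and array, judged from the values, and RMA and oligo are named in the submitters' processing notes, without versions. The lowest intensity on an array was 42.1 to 45.1, and whether a constant lies under every value, which would understate differences of dim genes, was not tested.

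Log2 of the deposited intensities was fitted with limma 3.58.1 in R 4.3.3 (lmFit and eBayes, all 3 genotypes in one fit, p-values adjusted by Benjamini-Hochberg). Of 45101 probe sets, 64 were controls, 9160 had no gene and 932 several. For each gene the probe set with the highest mean over the 9 arrays was used, and the test covered the 11951 genes whose signal exceeded the median on 3 or more arrays. The mean of WT 1 and WT 3 entered as 1 sample, which left 8 samples and 5 residual degrees of freedom. For arrays, their number limits the precision, and p-values cover the spread between these samples. The procedure was tested on simulated data for E2A-/- minus WT with 11951 genes, and recovered 28% of genes changed by 0.5 log2, 78% at 1 log2, 96% at 1.5 log2 and 98% at 2 log2. The simulated noise was normal and drawn independently for each gene. It therefore held no differences shared by many genes of an array, such as the granulocyte transcripts, and recovery in the real data may differ.

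The members, the lists of partners and markers and the alternatives were chosen with earlier results of these data known. Named genes were the 9 members with every probe set, of each partner list the genes past the threshold or else up to 2 related genes of highest mean intensity, of the marker lists those of widest range or on which a result turns, the 3 genes most correlated with each direction of the members over the 9 arrays, and Tcf3 and Lyl1. Promoters were those of RefSeq GRCm38.p6. Replicate numbers did not pair samples: deviations of same-numbered arrays correlated at -0.14 to 0.22.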

Additional observations from a re-analysis of the deposited data

How the results depend on the processing

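The sign of E2A-/- minus Lyl1-/- is fixed by the choice of the genes and says nothing of stability. In all, 0 members passed in the mean of both knockouts minus WT under the 25 alternatives that give it (the fit of only 2 groups gives none). The means of probe sets lowered the gap most in the 7 genes with more than 1 probe set. It became 0.34 log2 for Lpcat2, 0.36 for Auts2, 0.51 for Stx3, 0.52 for Anxa1, -0.59 for Pde2a, 0.80 for Sdc1 and 0.83 for Sema3d. With the 9 arrays as separate samples, 97 genes passed in E2A-/- against WT, with 4 members (Stx3 and Sdc1 added), 93 in Lyl1-/- against WT, with 5 members, 118 in the mean of both knockouts against WT, and 23 between the knockouts. With the replicate number as a block (replicate block) on 9 arrays, 60, 55 and 70 genes passed in the 3 comparisons with WT in that order, with 3 members in E2A-/-, 3 in Lyl1-/- and 0 in the mean, and 13 genes between the knockouts; the same numbers do not pair the samples. With a trend in eBayes the counts against WT were 43, 42 and 55, and with each probe set on its own 45, 44 and 49. Quantile normalization again gave 34 genes, and subtraction of the array minimum 35, in the mean of both knockouts.

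Members called in E2A-/- against WT numbered 0 with means of probe sets, with only the 2 groups compared, with the presence of Xist signal as a covariate, when the pair E2A-/- 2 and 3, the pair WT 2 and E2A-/- 2, the pair WT 1 and 3 or the 3 arrays with Xist signal were dropped, and 0 to 2 when 1 array was left out. Without WT 2, E2A-/- 2, E2A-/- 3, Lyl1-/- 1 or Lyl1-/- 2 both Sema3d and Auts2 lost the call, and without Lyl1-/- 3 Sema3d lost it (adjusted p = 0.0535). In Lyl1-/- against WT, 1 member passed with quantile normalization, minimum subtraction, the 60th percentile filter, means of probe sets and the trend, and 0 to 1 when 1 array was left out; it was Pde2a with means of probe sets (adjusted p = 0.0474), Sdc1 without Lyl1-/- 3 (0.0318) and otherwise Tpm4 (0.0291 to 0.0474).

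Over all genes, E2A-/- against WT had 27 calls, which became 10 with only the 2 groups, 15 with the Xist covariate, 6 when E2A-/- 2 and 3 were dropped, 9 when WT 2 and E2A-/- 2 were, 13 when WT 1 and 3 were, and 8 to 36 with 1 array left out. Lyl1-/- against WT had 23 calls, with 15, 7, 15, 8 and 14 under those settings in the same order, 12 with the actin covariate and 7 to 34 with 1 array left out. The mean of both knockouts had 22, with 11 and 9 for the first and second of those pairs dropped and 12 to 37 with 1 array left out. The comparison between the knockouts had 14, with 9 under the actin covariate, 4 and 3 for the same pairs dropped and 3 to 21 with 1 array left out. Without the 3 arrays with Xist signal, a setting chosen after seeing the data, limma called 0 genes in all 4 comparisons, with 704, 668, 740 and 603 at an unadjusted p under 0.05 in E2A-/- against WT, Lyl1-/- against WT, the mean and between the knockouts. Fewer samples enter the fits that leave arrays out; for the other settings the cause was not tested.

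The signs that turned were all of small, uncalled values. The mean of both knockouts minus WT for Anxa1 (-0.02 log2) was 0.00373 with means of probe sets, 0.0702 when WT 1 and WT 3 were dropped, and -0.12 to 0.0060 with 1 array left out. For Sdc1 (-0.03 log2) it was 0.0182 with 9 arrays and with the replicate block, 0.0041 with quantile normalization, 0.0613 with means of probe sets, 0.12 with Xist and 0.0362 with the actin ratio as a covariate, 0.11 without WT 2 and E2A-/- 2, 0.17 without the Xist arrays, and -0.13 to 0.11 with 1 array left out. Lyl1-/- minus WT for Auts2 (-0.13 log2) was 0.0227 when WT 2 and E2A-/- 2 were dropped, 0.0017 when the Xist arrays were, and -0.20 to 0.0227 with 1 array left out.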

Other observations

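Tpm4 and Lpcat2, 2 of the 7 genes that were lowest on the Lyl1-/- arrays, lie on chromosome 8, as Lyl1 itself does (RefSeq gene order), with 61 and 48 tested genes between them and Lyl1. Chromosome 8 held 5.33% of the tested genes with a known chromosome, and besides Lyl1 itself 0 of the 22 other genes that limma called in Lyl1-/- against WT lay on it. At that share few or none would lie there, and Tpm4 and Lpcat2 were not among the called genes, so nothing is read from the count. The part of their position on the chromosome of Lyl1 in their differences was not tested. The other 7 members lie on chromosomes 5 (Sema3d and Auts2), 7 (Pde2a), 12 (Sdc1), 15 (Card6) and 19 (Stx3 and Anxa1), and Tcf3 lies on chromosome 10.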
